A study of Mus musculus with 2 samples.

Results

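A set of 10 C-type lectin genes of the dectin and DCIR group was examined in 2 arrays of sorted mouse spleen dendritic cells (DCs). They are Clec4a1, Clec4a2, Clec4a3, Clec4a4, Clec4n, Clec4d, Clec4e, Clec7a, Clec12a and Clec10a. Their probe sets were taken where the platform annotation gave 1 of these genes and no other gene. That rule found 10 probe sets for 7 of the 10 genes, of 45101 probe sets and 18194 genes with a single-gene probe set in all. Clec4a1, Clec4a4 and Clec12a had no single-gene probe set in the annotation and were not analysed here. The first group was CD8+ DCs, sorted as CD3-B220-CD8a+CD11c+ cells, and the second was CD8- DCs, sorted as CD3-B220-CD8a-CD11c+ cells. Both came from spleens of C57BL/6 mice that carried B16 melanoma cells producing Flt3L, the cytokine Flt3 ligand, which expands DCs. Spleens were taken 10 to 12 days after the tumour cells were injected, and neither population was stimulated afterwards. Every cell measured therefore came from a tumour-bearing host with raised Flt3L. The sources used here give neither the age of the mice nor the number used for each array.

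C-type lectin receptors are surface proteins of myeloid cells, and many of them bind sugars or lipids of microbes or of the body's own cells. Dectin-1, encoded by Clec7a, binds fungal β-glucan and signals through the kinase SYK by a tyrosine motif in its own tail. Dectin-2 (Clec4n) and Mincle (Clec4e) pair with the Fc receptor γ chain to reach SYK, whereas DCIR1 (Clec4a2) and DCIR2 (Clec4a4) carry an inhibitory tyrosine motif that recruits phosphatases. DCIR2 is the antigen of the antibody 33D1, a marker of CD8- spleen DCs. In the mouse, all of these genes but Clec10a lie on chromosome 6, in a Clec4 cluster and in the dectin-1 cluster, and Clec10a lies on chromosome 11.

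The sequences upstream of 4 of the genes on the array are shown because 3 of these genes had the largest differences between the arrays by the probe set that stood for each, and the remaining one, Clec4e, was below the floor on both. They are the 250 bases before a RefSeq start site in GRCm38.p6, read 5′ to 3′ on the strand of the gene. Capitals mark matches on either strand to GAGGAA, the core bound by the myeloid factor PU.1, to the ETS-IRF composite element, a joint site of ETS and IRF factors, or to TGANTCA, the AP-1 site. No matches overlapped in these windows.
Clec7a, chr6:129472786-129473035, minus strand: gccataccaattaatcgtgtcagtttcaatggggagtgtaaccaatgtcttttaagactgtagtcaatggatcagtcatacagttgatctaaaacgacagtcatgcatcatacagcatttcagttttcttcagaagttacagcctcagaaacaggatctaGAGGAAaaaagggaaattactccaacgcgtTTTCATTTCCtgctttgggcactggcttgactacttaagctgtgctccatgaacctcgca
Clec4a3, chr6:122952265-122952514, plus strand: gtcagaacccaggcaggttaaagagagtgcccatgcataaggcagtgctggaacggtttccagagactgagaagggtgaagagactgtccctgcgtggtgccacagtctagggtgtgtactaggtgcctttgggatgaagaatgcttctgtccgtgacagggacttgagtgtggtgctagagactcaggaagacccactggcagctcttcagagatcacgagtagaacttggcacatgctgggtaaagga
Clec4a2, chr6:123122440-123122689, plus strand: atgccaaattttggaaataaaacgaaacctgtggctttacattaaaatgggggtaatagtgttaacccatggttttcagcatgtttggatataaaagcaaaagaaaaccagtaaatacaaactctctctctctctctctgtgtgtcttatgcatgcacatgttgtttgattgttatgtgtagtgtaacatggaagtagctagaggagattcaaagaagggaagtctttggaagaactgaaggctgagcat
Clec4e, chr6:123289872-123290121, minus strand: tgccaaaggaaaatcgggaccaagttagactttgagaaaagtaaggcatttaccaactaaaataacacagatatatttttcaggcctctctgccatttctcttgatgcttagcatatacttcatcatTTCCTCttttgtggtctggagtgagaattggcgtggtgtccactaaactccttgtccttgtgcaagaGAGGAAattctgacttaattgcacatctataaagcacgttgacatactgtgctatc

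The RefSeq promoter table held 7 of the 10 genes. In the Clec7a window shown, GAGGAA began 90 bases before the start site and the composite site lay between 60 and 51 bases before it. Counted from a second Clec7a start site, GAGGAA began 96 bases before it and the composite site lay between 66 and 57 bases before it. The Clec4e window held GAGGAA on each strand, and the Clec4a2 window held none of the 3 motifs. Of the 32851 promoters of the same length in the table, 23.3% held GAGGAA, 2.3% held the composite site and 6.75% held the AP-1 site. For Clec4a3 the window shown held no match, but the window of a second start site held GAGGAA on the opposite strand, 50 to 45 bases before that site. There it lay in a run of 17 bases, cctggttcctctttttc, also found before the Clec4a1 start site, the longest run shared between promoters of different genes of this group. These matches describe letters in the windows and are not evidence of binding.

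All values are log2 signals, and the difference is CD8+ minus CD8- DCs, so a negative one means lower in CD8+ DCs. Each population had 1 array, so no value has a replicate, no test was made, and a difference cannot be told apart from variation between mice, sorts or hybridisations. A value under 3.85, the median of the table and the floor used here, was treated as near background. Where 1 array was below it, the fold is given as "at least", computed from the floor. The arrays carried the labelled cells' markers, but not all were confined to 1 array. Itgax (CD11c), Flt3, Zbtb46, Cd74 and H2-Ab1 were above the floor on both arrays, and Cd8a was 11.29 in CD8+ DCs and 5.15 in CD8- DCs. Of the other CD8+ DC markers, Itgae was 7.91 in CD8+ and 4.68 in CD8- DCs. Xcr1 (10.88 in CD8+ and 8.45 in CD8- DCs) and Batf3 (9.56 in CD8+ and 8.90 in CD8- DCs) were bright on both arrays. Sirpa, a CD8- DC marker, was 4.49 in CD8+ and 8.69 in CD8- DCs. Some measures of technical spread were available within the pair: the 45 controls made for genes of bacteria and a phage had differences of 0.07 ± 0.12 (mean ± SD, n = 45 probe sets), and probe sets of the same gene had a pooled SD of 0.30 in their difference.

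Of the 7 lectin genes, 5 were measured. All 5 were lower in CD8+ DCs by 2-fold or more, against 5.97% of the 11404 measured genes. None was higher by that much, against 3.55% of all measured genes. A measured gene is one that reached the floor on at least 1 array. Of these 5, Clec4a3, Clec4a2 and Clec4n reached it through CD8- DCs alone by the probe set that stood for each. Those probe sets had to differ in that direction, and the count is a description. The other Clec4a2 probe set was above the floor on both arrays, at 4.37 in CD8+ and 5.38 in CD8- DCs. When every value under the floor was raised to it, 4 of the 5 measured genes stayed lower by 2-fold or more. None was higher, against 5.55% and 3.25% of all measured genes. Clec4n then differed by -0.54, under 2-fold. The genes not measured, Clec4d and Clec4e, were below the floor on both arrays. In sorted populations measured in bulk, fewer cells expressing a gene and less RNA per cell cannot be told apart.

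**Figure D1:**
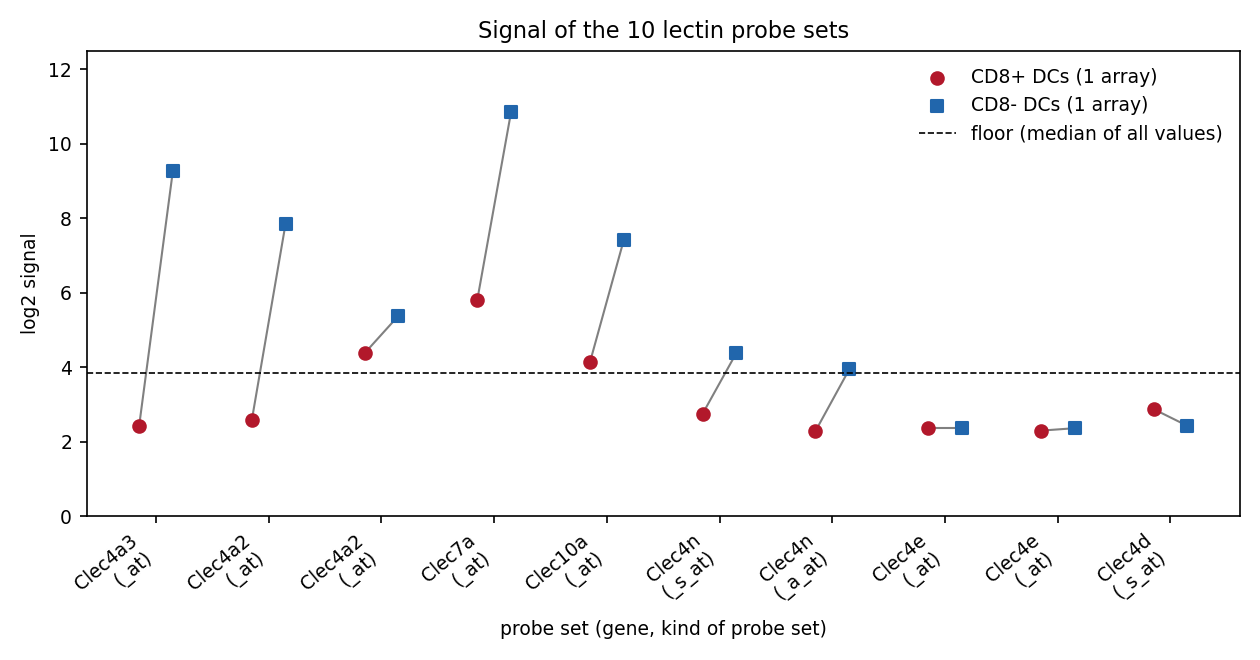
Log2 signal (vertical axis) of each of the 10 probe sets of the 7 lectin genes, with the CD8+ DC array as circles on the left of each pair and the CD8- DC array as squares on the right. The dashed line is the floor of 3.85. Clec4a3, Clec7a, Clec10a and both probe sets of Clec4a2 lie higher in CD8- DCs, and the probe sets of Clec4d and Clec4e lie below the line on both arrays.

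Among the receptors that signal activation, the log2 signal of Clec7a was 5.80 in CD8+ DCs, against 10.85 in CD8- DCs. Its single probe set was above the floor on both arrays, so the 33.1-fold lower signal in CD8+ DCs rests on measured values on both sides. With values under the floor raised to it on both arrays, Clec7a ranked 16th of the 11404 measured genes by size of difference in favour of CD8- DCs.

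The other activating receptors of the group lay near or below the floor. Clec4n, which encodes the mannan receptor dectin-2, had 2 probe sets, at 2.75 and 2.28 in CD8+ DCs and at 4.39 and 3.94 in CD8- DCs. The first is of the _s_at kind, which can detect transcripts of related genes. Their differences, -1.64 and -1.66, were nearly the same, but both CD8+ values were below the floor and the CD8- values were just above it. The fold was therefore at least 1.46 in favour of CD8- DCs by the first probe set and at least 1.07 by the other, which does not reach 2-fold. Clec4e, which encodes Mincle, a receptor for mycobacterial cord factor, read 2.36 on both arrays with 1 probe set, and 2.30 in CD8+ and 2.36 in CD8- DCs with the other. Clec4d, which encodes its relative and partner MCL, was 2.88 in CD8+ and 2.43 in CD8- DCs by an _s_at probe set. No fold is given for Clec4e and Clec4d, since their signals were below the floor on both arrays.

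Both DCIR genes on the array were lower in CD8+ DCs. Clec4a3, which encodes DCIR3, read 2.42 in CD8+ DCs, below the floor, and 9.28 in CD8- DCs. The signal was at least 43.2-fold lower in CD8+ DCs, and the log2 difference counted from the floor, -5.43, ranked 10th among all measured genes treated the same way. The array had a single probe set for it, so no second probe set bears on this value.

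Clec4a2, which encodes the inhibitory receptor DCIR1, had 2 single-gene probe sets that gave different sizes. The one with the higher mean read 2.58 in CD8+ DCs and 7.86 in CD8- DCs, at least 16.2-fold lower in CD8+ DCs. The other read 4.37 in CD8+ DCs and 5.38 in CD8- DCs, or 2.01-fold lower. Both gave the same direction, but the gap between their differences, -5.28 and -1.01, is far larger than the pooled SD of 0.30. A further probe set, annotated to both Clec4b1 and Clec4a2 and so not a member by the rule, read 4.12 in CD8+ DCs and 9.31 in CD8- DCs. It cannot be assigned to either gene.

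Clec10a, which encodes the galactose-binding lectin MGL1 (CD301a), lies outside both clusters of chromosome 6. Its probe set read 4.13 in CD8+ DCs and 7.42 in CD8- DCs, 9.72-fold lower in CD8+ DCs, with the CD8+ value just above the floor. It ranked 73rd among all measured genes, counted from the floor. Its close relative Mgl2, from the list of other lectins, read 3.14 in CD8+ DCs and 4.12 in CD8- DCs, at least 1.21-fold lower in CD8+ DCs.

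The order of the genes by size of difference depended on how values near background and several probe sets were treated. As measured, it ran Clec4a3 (-6.86), Clec4a2 (-5.28), Clec7a (-5.05), Clec10a (-3.28) and Clec4n (-1.64), where Clec4a2 and Clec7a differed from each other by less than the pooled SD of 0.30. With values under the floor raised to it, Clec4a3 (-5.43) was followed by Clec7a (-5.05), Clec4a2 (-4.01), Clec10a and Clec4n (-0.54). With both Clec4a2 probe sets averaged, Clec4a2 (-3.14) came just after Clec10a (-3.28). The genes with a measured difference nearest to that of Clec4a3 over these 2 arrays were Ddr1 (-6.91), Ptgs2 (-6.77) and Cybb (-7.05), but all had CD8+ values below the floor. Counted from the floor their differences were -5.77, -6.49 and -7.05, against -5.43 for Clec4a3, so the likeness rests on near-background values. Ddr1 encodes a collagen receptor and was read by an _x_at probe set, a kind prone to cross-hybridisation. Ptgs2 encodes the inducible cyclooxygenase and Cybb a subunit of the phagocyte NADPH oxidase.

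Gene order along chromosome 6, taken from RefSeq GRCm38.p6, showed differences of unlike size between neighbours. Each cluster was taken only between the outermost genes of this group in it, so genes beyond them were not placed. Within those limits the Clec4 cluster ran Clec4a1, Clec4a3, Clec4a4, Clec4b1, Clec4a2, Clec4b2, Clec4n, Clec4d and Clec4e. Clec4b1, which encodes DCAR, an activating relative of DCIR, lies between the DCIR genes and read 2.94 in CD8+ DCs and 7.97 in CD8- DCs, at least 17.5-fold lower in CD8+ DCs. The 3 genes at the other end, Clec4n, Clec4d and Clec4e, were at 4.39 or below on both arrays. The part of the dectin-1 cluster taken ran Clec12a, Clec12b, Clec1b, Clec9a, Clec1a and Clec7a. There the large difference of Clec7a was not seen in the other genes with a value. Clec1a, the gene next to Clec7a in that part, was 3.95 in CD8+ and 3.85 in CD8- DCs. Clec1b, the podoplanin receptor CLEC-2 of platelets, was 4.39 in CD8+ and 4.19 in CD8- DCs. Clec12b was below the floor on both arrays, at 3.19 in CD8+ and 2.80 in CD8- DCs.

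**Figure D2:**
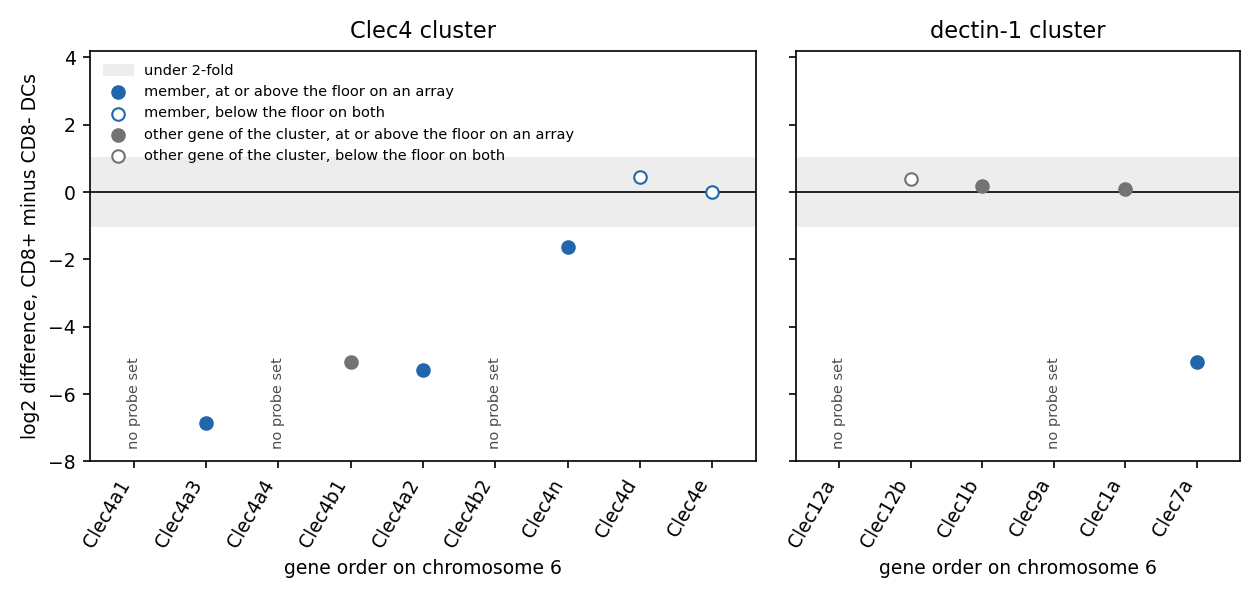
Log2 difference, CD8+ minus CD8- DCs (vertical axis), of each gene in its order along chromosome 6. The parts taken of the Clec4 cluster (left) and the dectin-1 cluster (right) are shown. Blue marks the lectin genes of this group and grey other genes. Open circles are below the floor on both arrays, genes marked as lacking a probe set had no single-gene one, the grey band is under 2-fold, and Clec4a3, Clec4b1, Clec4a2 and Clec7a lie between -6.86 and -5.04.

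The other C-type lectins on the array divided more between the subsets. Of 30 listed genes, 27 had a single-gene probe set and 16 were measured. Of these 16, 8 were at least 2-fold lower in CD8+ DCs and 2 were higher, where 5.97% and 3.55% of all measured genes were. Of the 8, 6 reached the floor through CD8- DCs alone and so had to be lower in CD8+ DCs, and the counts are a description. The median difference was -1.06, against 0.03 over all measured genes, but it was -0.16 with no filter and -3.37 with the floor at the 75th percentile. After raising values to the floor, 6 were lower. Cd209a, a relative of human DC-SIGN, was at least 125-fold lower in CD8+ DCs (3.47 in CD8+ and 10.81 in CD8- DCs). Cd72, an inhibitory lectin best known from B cells, was 18.4-fold lower (4.22 in CD8+ and 8.42 in CD8- DCs), and the early activation antigen gene Cd69 was at least 6.66-fold lower. Clec2i was at least 4.78-fold lower, and Clec2d, whose product is a ligand of an NK cell receptor, was 2.29-fold lower. Clec4g and Cd209d, with differences of -1.28 and -1.14, reached bounds of 1.75-fold and 1.66-fold, and the other Clec4g probe set differed by 0.09. The lectins higher in CD8+ DCs were Cd207, which encodes langerin (8.12 in CD8+ and 4.29 in CD8- DCs), and Ly75, which encodes the endocytic receptor DEC-205 (8.22 in CD8+ and 5.90 in CD8- DCs). The mannose receptor gene Mrc1 was below the floor on both arrays.

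Genes of the activating pathway used by the dectins, MCL and Mincle were mostly near equal or lower in CD8+ DCs. Of 25 on the array, 24 were measured, 6 were at least 2-fold lower in CD8+ DCs and none was higher by that much (all measured genes, 5.97% and 3.55%), with a median of -0.42. Fcer1g, which encodes the γ chain that dectin-2, MCL and Mincle need, read 6.06 in CD8+ DCs and 10.76 in CD8- DCs, 26.0-fold lower in CD8+ DCs. The related adaptor gene Tyrobp, which encodes DAP12, was bright on both arrays, at 11.04 in CD8+ and 11.89 in CD8- DCs. The Src family kinase gene Fgr was 15.1-fold lower in CD8+ DCs, at 5.22 in CD8+ and 9.14 in CD8- DCs. Syk itself was 2.05-fold lower, at 6.70 in CD8+ and 7.73 in CD8- DCs, and its 4 probe sets differed by -1.68 to -0.99. Malt1, the protease that acts with CARD9 and BCL10 downstream of SYK, was 5.40-fold lower, and its 3 probe sets all lay between -2.43 and -1.75. Bcl10 was 7.76 in CD8+ and 8.21 in CD8- DCs. The NF-κB subunit gene Rel was 2.27-fold lower, and the adaptor gene Blnk, at 3.15 in CD8+ and 4.58 in CD8- DCs, was at least 1.66-fold lower. Plcg2, the phospholipase downstream of SYK, was 9.15 in CD8+ and 9.25 in CD8- DCs. Card9 was among the 6 listed genes of this pathway with no single-gene probe set.

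Genes of the inhibitory pathway were of both kinds. Of 9 measured, 2 were at least 2-fold lower and 1 was higher in CD8+ DCs (all measured genes, 5.97% and 3.55%), with a median of 0.03. With probe sets averaged, 1 was lower and 0 were higher. Ptpn6, which encodes the phosphatase SHP-1 that inhibitory lectin receptors recruit, was 8.81 in CD8+ and 10.68 in CD8- DCs, 3.66-fold lower in CD8+ DCs, and its 2 probe sets differed by -1.87 and -1.85. The SHP-2 gene Ptpn11 was 8.87 in CD8+ and 8.71 in CD8- DCs, and the inositol phosphatase gene Inpp5d was 10.31 in CD8+ and 9.72 in CD8- DCs. Pag1, which encodes a docking protein for the kinase CSK, was 6.38-fold lower in CD8+ DCs, but its 4 probe sets ran between -2.67 and 0.51. Cblb, which encodes a ubiquitin ligase that restrains receptor signalling, was 2.83-fold higher in CD8+ DCs by the probe set that stood for it, whereas the lowest of its 3 probe sets differed by 0.21.

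Genes that dectin receptors can induce did not share a direction in these unstimulated cells. Of 15 measured, 5 lay past 2-fold on the CD8+ side and 3 on the CD8- side (all measured genes, 3.55% and 5.97%). The median was -0.21, or 0.13 with no filter. Ptgs2 (at least 89.8-fold) and Il1b (2.74-fold) were lower in CD8+ DCs, as was the chemokine gene Ccl3, at 3.21 in CD8+ and 7.02 in CD8- DCs. Il1b was bright on both arrays, at 10.88 in CD8+ and 12.34 in CD8- DCs. The CD8+ side held Il12b (4.82-fold), Egr3 (4.59-fold), the costimulatory gene Cd86 (3.51-fold) and Egr2 (2.90-fold), and the other Egr3 probe set differed by 0.47. Il6, at 4.47 in CD8+ and 3.43 in CD8- DCs, was at least 1.54-fold higher. Il23a and Il10 were below the floor on both arrays, and Tnf was 5.78 in CD8+ and 6.00 in CD8- DCs.

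**Figure D3:**
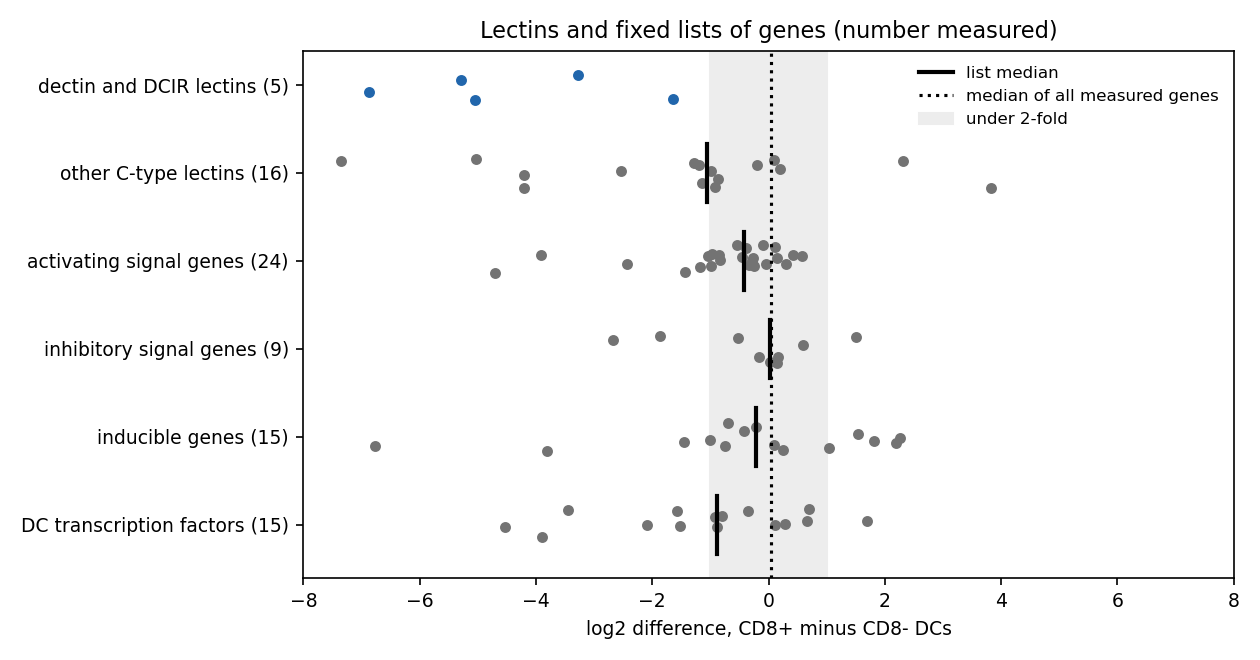
Log2 difference, CD8+ minus CD8- DCs (horizontal axis), of each measured gene, one row for the dectin and DCIR lectins and one for each of 5 other lists, with the number measured in brackets. Black bars are list medians, the dotted line is the median of all measured genes (0.03) and the grey band is under 2-fold. The 5 lectin points lie between -6.86 and -1.64, without Clec4d and Clec4e, which were below the floor on both arrays.

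Of 15 transcription factors of DCs and myeloid cells, all measured, 6 were at least 2-fold lower and 1 was higher in CD8+ DCs (all measured genes, 5.97% and 3.55%), with a median of -0.89. With probe sets averaged, 2 were higher. Spi1, which encodes PU.1, was 9.17 in CD8+ and 9.52 in CD8- DCs. Its relative Spib was 3.73 in CD8+ and 8.27 in CD8- DCs, at least 21.4-fold lower in CD8+ DCs. Of the IRF factors that bind composite sites with PU.1 or SPIB, Irf4 was at least 11.2-fold lower in CD8+ DCs (3.44 in CD8+ and 7.33 in CD8- DCs) and Irf8 was 3.22-fold higher (11.91 in CD8+ and 10.23 in CD8- DCs). Klf4 (10.9-fold), Relb (4.28-fold), Zeb2 (2.97-fold) and Cebpa (2.87-fold) were the others lower in CD8+ DCs. The 5 Zeb2 probe sets differed by -5.32 to -1.57.

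Markers of other myeloid cells partly moved with the lectins. Of the 8 monocyte and macrophage markers on the array, 5 were at or above the floor in CD8+ DCs and 6 in CD8- DCs. Of these 6, 3 were at least 2-fold lower in CD8+ DCs and 1 was higher (all measured genes, 5.97% and 3.55%). The summed linear signal of all 8 was 381 in CD8+ DCs and 1984 in CD8- DCs. That sum follows the brightest markers, above all Csf1r in CD8- DCs. Csf1r was 6.40 in CD8+ and 10.56 in CD8- DCs, Adgre1 was 4.63 in CD8+ and 8.22 in CD8- DCs, and C1qa was 2.84 in CD8+ and 5.30 in CD8- DCs. Cd14 ran the other way, at 7.50 in CD8+ and 6.10 in CD8- DCs. So did Vcam1, at 5.52 in CD8+ and 4.66 in CD8- DCs. Fcgr1 was near equal, at 4.36 in CD8+ and 4.26 in CD8- DCs. The macrophage genes Mertk and Spic were below the floor on both arrays. The part of such cells in the lectin differences was not tested. All 5 neutrophil markers on the array, S100a8 and S100a9 among them, were below the floor on both arrays. Of the 3 B cell markers on the array 1 was above it in each population, as was 1 of 3 for T cells, 1 of 3 for NK cells and 1 of 4 for B16 melanoma. Among the 4 plasmacytoid DC markers, Tcf4 was 5.47 in CD8+ and 7.55 in CD8- DCs and Ccr9 was 8.03 in CD8+ and 5.94 in CD8- DCs. Siglech was 3.71 in CD8+ and 4.04 in CD8- DCs, and Bst2 was 7.37 in CD8+ and 7.80 in CD8- DCs.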

How the data were processed

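Biotin-labelled cRNA made from total RNA of each sorted population was measured on 1 Affymetrix array. The deposited table holds log2 signals per probe set, made by the authors with RMA, per the submitters' processing notes. This method subtracts background, makes the arrays' distributions equal by quantiles and summarises each probe set. The sources used here give neither its version nor which arrays were normalised jointly. Quantile normalisation would hide a shift shared by most transcripts.

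Gene names came from the platform annotation, with symbols updated by gene identifier against RefSeq GRCm38.p6. A gene with several probe sets was represented by the one whose mean of both arrays was highest. Genes whose higher value reached the median of all values (3.85) counted as measured. The number of arrays limits the precision, and no test was possible. Sizes were read against 2-fold. The members and lists were chosen with earlier results of these data known. The text names all members, from 5 lists (108 entries) every gene past 2-fold and up to 6 others, and the 3 genes nearest in difference to the member with the largest one. The motifs were chosen after the values were seen. The 2-fold call was tested on simulated data, with differences planted only in genes of higher mean signal. The at-least folds, ranks and motif search were not part of that simulation. Python 3.11.15, numpy 2.4.6, pandas 2.3.3, statsmodels 0.14.6 and matplotlib 3.10.9 were used. Alternatives were centring, a lowess trend (span 0.3), other filters, means over probe sets, dropping _s_at and _x_at probe sets, values set to the floor, and thresholds of 1.5-fold and 4-fold.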

Additional observations from a re-analysis of the deposited data

Results flagged for a closer look

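A probe set outside the comparisons carried signal above the floor. It is annotated to both Clec4b1 and Clec4a2, so it stands for no single gene, and its log2 signal was 4.12 in CD8+ DCs, against 9.31 in CD8- DCs, which is a difference of -5.196. No control sample exists for it. The single-gene probe set of Clec4b1 differed by -5.04 and those of Clec4a2 by -5.28 and -1.01.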

How the results depend on the processing

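Of 157 values recomputed under the alternatives, 146 stayed within 0.30 (the pooled SD between probe sets of a gene) or, for counts, within 1.5 times, and none changed sign past 2-fold. With all probe sets of a gene averaged, Clec4a2 differed by -3.14, the inhibitory list had 1 gene lower and 0 higher in CD8+ DCs, and 2 transcription factors were higher. With values under the floor raised to it, differences were -4.01 for Clec4a2, -5.43 for Clec4a3 and -0.54 for Clec4n. With no filter the median was -0.16 for the other lectins and 0.13 for the inducible genes, and with the floor at the 75th percentile the other lectins had a median of -3.37 and 5 genes lower. These filters change which genes enter. At the 75th percentile Clec4n was not measured. No paired analysis was possible because each population had 1 array. Signal near background limits Clec4n, Clec4d and Clec4e, and the CD8+ values of Clec4a2 and Clec4a3.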
